A study of Mus musculus and Homo sapiens with 15 samples.

Results

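The 10 genes described here mark fat cells. They are Pparg, Fabp4, Plin1, Cidec, Adipoq, Lep, Cfd and Retn, which white and brown adipocytes use in storing fat or in signalling, and Cidea and Ucp1, which are characteristic of heat-producing fat. They were picked by symbol, with their levels in these libraries already known, as 10 of the 52340 genes in the table of thymus tumours and of the 56691 genes in the table of grafted tumours, and all 10 were found in both tables. Their levels in the thymus libraries and in the grafts were in view when they were picked, so for these genes both sets of comparisons are descriptions without a test.

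The thymus tissue came from W/W mice, which carry p53 R282W on both alleles and develop T-lymphomas; every thymus group shares this genotype, and no wild-type thymus was analysed here. All 9 thymuses were taken at day 150 after birth, 3 from mice given water, 3 from mice treated with arsenic trioxide (ATO) whose tumours were progressing, and 3 from ATO-treated mice whose tumours were regressing. The outcome defines the ATO groups, so treatment and outcome cannot be told apart in a comparison with water. The grafts, called a CDX model in the labels, grew in C57 mice with the genotype given as WT and received either phosphate-buffered saline, PBS, or ATO, with 2 libraries for each. The labels do not give the grafted cells, the site of the graft, the sex of the mice or the dose of ATO, and they do not say whether a replicate number marks a separate animal, so p-values measure only the spread between these libraries.

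White adipocytes hold a single large lipid droplet, store energy as triglyceride and secrete hormones such as leptin and adiponectin. Brown adipocytes hold many small droplets and many mitochondria, and their uncoupling protein UCP1 lets protons back across the inner mitochondrial membrane so that fuel oxidation yields heat. Both kinds of fat depend on the nuclear receptor PPARG for their formation, and depots of both kinds lie in the chest close to the thymus in mice.

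Library depth was 12800367 to 17550594 counts in the thymus table and 12922147 to 15637644 counts in the graft table. Levels are given as CPM, the count scaled to a library of 1000000 counts after TMM adjustment, and levels of different genes are compared per kilobase (kb) of exonic length. The intervals and floors allow for counting error alone, because reads that carry no molecular identifier may be copies of 1 molecule. Mitochondrially encoded genes took 2.08% to 4.86% of the counts in 7 thymus libraries, 8.83% in progressing replicate 2 and 8.48% in regressing replicate 3. Bulk samples do not part cell number from RNA content: fewer cells of a type and less RNA per cell cannot be told apart.

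The starts of 3 genes whose levels carry the results are shown first: Lep and Adipoq, secreted products of white fat whose ratio differed between libraries, and Cfd, which had the largest difference among the 10 in the grafts. Each line is the 250 bases upstream of the RefSeq start in GRCm38.p6, 5′ to 3′ on the gene's strand, with matches to a searched motif in capitals.
Lep: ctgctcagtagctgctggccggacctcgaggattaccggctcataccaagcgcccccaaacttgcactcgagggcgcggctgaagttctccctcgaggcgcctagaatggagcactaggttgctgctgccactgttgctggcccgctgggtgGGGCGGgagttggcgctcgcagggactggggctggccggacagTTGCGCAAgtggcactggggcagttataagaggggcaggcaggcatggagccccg
Adipoq: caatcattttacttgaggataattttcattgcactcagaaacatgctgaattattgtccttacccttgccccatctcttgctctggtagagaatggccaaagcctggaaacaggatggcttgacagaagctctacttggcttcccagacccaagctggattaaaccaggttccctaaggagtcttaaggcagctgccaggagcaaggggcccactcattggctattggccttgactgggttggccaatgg
Cfd: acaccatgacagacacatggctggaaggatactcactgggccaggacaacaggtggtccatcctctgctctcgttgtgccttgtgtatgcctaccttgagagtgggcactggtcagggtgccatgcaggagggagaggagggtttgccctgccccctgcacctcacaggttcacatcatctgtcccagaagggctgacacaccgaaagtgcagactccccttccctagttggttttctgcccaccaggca
The windows lie at chr6:29059971-29060220 for Lep, chr16:23146286-23146535 for Adipoq and chr10:79890603-79890852 for Cfd, all on the plus strand. Both strands were searched for the TATA box motif, spelled TATAAA, the nuclear receptor half-site AGGTCA, the C/EBP motif TTGCNNAA, the E-box CACGTG and the GC box GGGCGG. The Lep window held TTGCGCAA, a C/EBP match that reads the same on both strands, starting 55 bases upstream of the start, and GGGCGG starting 98 bases upstream. Of 32851 windows of this length, 9.56% held the C/EBP motif and 32.7% the GC box. The matches did not overlap each other. The Adipoq and Cfd windows held none of the 5 motifs, which says only that these letters are not in those windows. RefSeq windows were matched for 8 of the 10 genes.

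In the thymuses, all 10 genes had their highest level in regressing replicate 3, and the heat-producing gene Ucp1 reached 1191 CPM there. Most of them were nearly absent from the water tumours, and 1 of the 3 progressing tumours, replicate 2, carried Ucp1 and Cidea at about the level of regressing replicate 2. The grafts held low levels of white fat genes and at most 1 count of Ucp1 and no count of Cidea. Summed over the 10 genes, counts made up 0.570% of regressing replicate 3, 0.113% of progressing replicate 2, 0.0725% of regressing replicate 2 and 0.0197% of regressing replicate 1. They made up 0.00467% to 0.0115% of the water libraries, 0.0131% and 0.0254% of the other progressing libraries and 0.00518% to 0.0108% of the grafts.

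**Figure D1:**
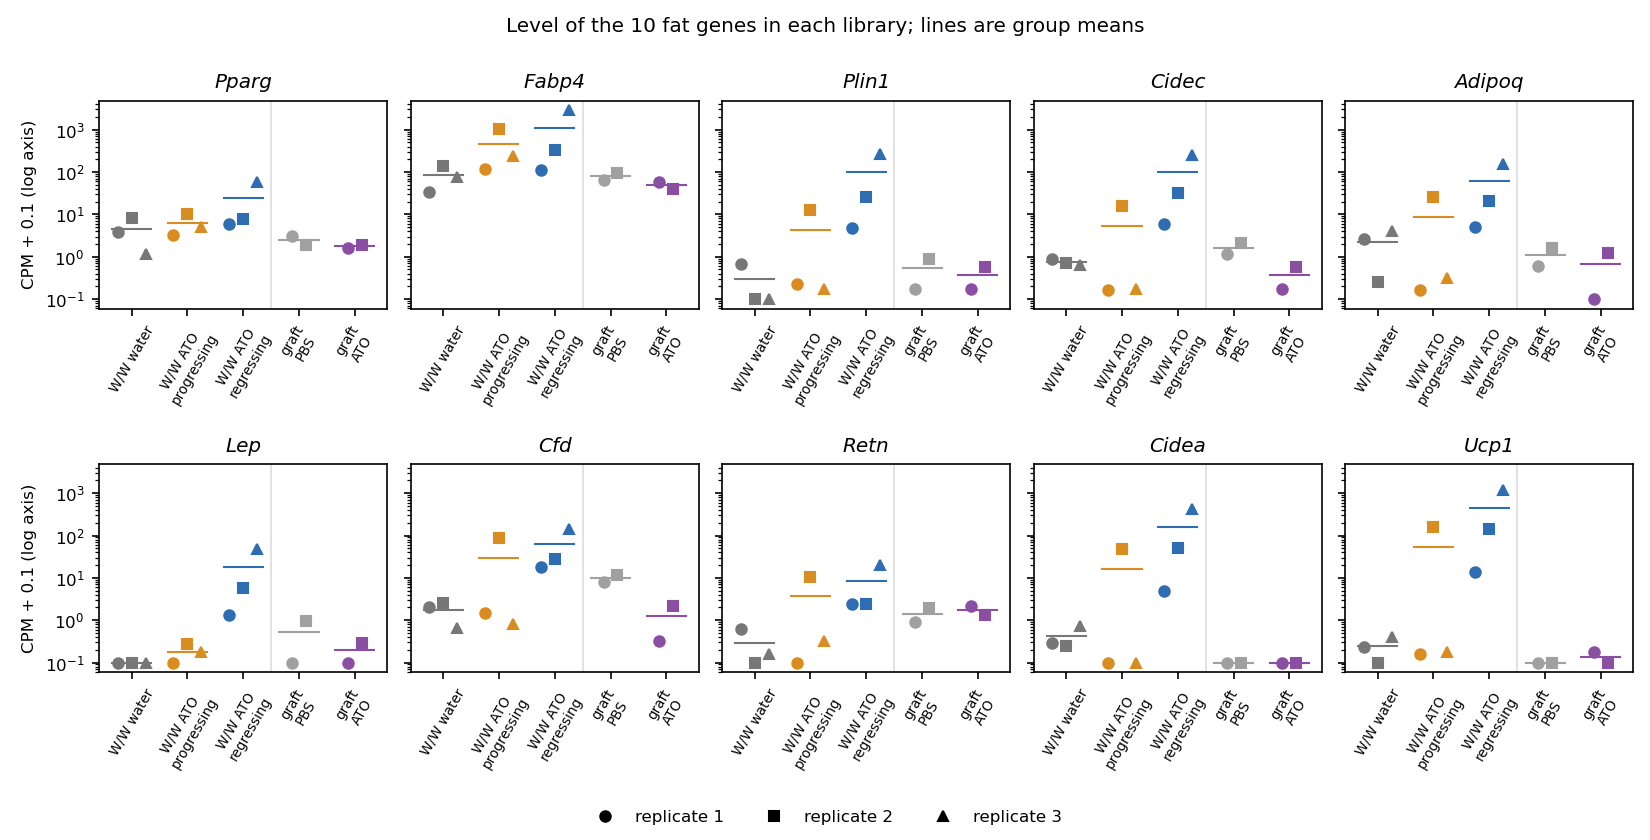
Level of each of the 10 genes in each library, as CPM plus 0.1 on a log axis, with 3 libraries for each W/W group and 2 for each graft group; symbols mark the replicate and lines the group mean. Regressing replicate 3 is the highest point in every panel, and Ucp1 and Cidea lie at or near 0 in the grafts. Progressing replicate 2 stands above the other progressing libraries for all 10 genes, for Lep only on 2 counts against 0 and 1.

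Pparg, the nuclear receptor that drives fat cell formation, lies at chr6:115360951-115490399 in the GRCm38 coordinates of the thymus table. Every thymus had it, with 3.73, 8.15 and 1.05 CPM in water replicates 1, 2 and 3, 3.14, 10.4 and 4.84 CPM in progressing tumours, and 5.68, 7.89 and 57.4 CPM in regressing tumours. The water, progressing and regressing ranges overlapped, and regressing replicate 3 alone stood far above the rest. The regressing mean of 23.7 ± 29.3 CPM (SD, n = 3) was 5.49 times the water mean of 4.31 ± 3.59 CPM (SD, n = 3). A gene on the opposite strand, Gm44079, overlaps Pparg and had at most 3 counts in any thymus library.

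Fabp4 encodes a fatty acid carrier abundant in adipocytes that endothelial cells and macrophages also make. Its counts were high in every thymus, with 34.5, 142 and 76.8 CPM after water, 118, 1050 and 239 CPM in progressing tumours, and 109, 338 and 2876 CPM in regressing tumours. Water and regressing libraries overlapped, as did progressing and regressing ones. Fabp4 was at 118 and 239 CPM in the progressing tumours that had 1 and 3 counts of Adipoq. The same tumours had 51 and 66 counts of Pparg and 23 and 10 counts of Cfd. The summed level of 8 endothelial marker genes was 91.2 to 174 CPM after water, 130 to 272 CPM in progressing tumours and 139 to 308 CPM in regressing tumours, and that of 8 macrophage markers was 204 to 573, 98.6 to 354 and 187 to 287 CPM. None of the endothelial or macrophage markers was at 0 in any thymus library, and the part of these cells in the Fabp4 level was not tested.

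Plin1 and Cidec encode proteins of the lipid droplet surface, perilipin 1, which gates lipolysis, and CIDEC, which lets droplets fuse and grow. Plin1 had 9, 0 and 0 counts after water, 2, 146 and 1 counts in progressing tumours, and 77, 362 and 3983 counts in regressing tumours. In CPM the regressing libraries were at 4.75, 25.5 and 262, above every water library. Cidec had 12, 8 and 9 counts after water, 1, 188 and 1 counts in progressing tumours, and 94, 452 and 3935 counts in regressing tumours, and its regressing levels of 5.80, 31.8 and 259 CPM also did not overlap water. The regressing means were 97.4 ± 143 CPM for Plin1 and 98.8 ± 139 CPM for Cidec (SD, n = 3), beside water means of 0.193 ± 0.334 and 0.645 ± 0.113 CPM, which rest on too few counts for a fold. For both genes, progressing replicates 1 and 3 lay below all regressing libraries, whereas progressing replicate 2 stood above regressing replicate 1.

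Of the secreted products, Adipoq encodes adiponectin, a hormone that raises insulin sensitivity. It was present in some water tumours: its levels were 2.51, 0.152 and 3.88 CPM after water, 0.0615, 25.2 and 0.220 CPM in progressing tumours and 4.81, 20.4 and 155 CPM in regressing tumours. The water and regressing ranges did not overlap, although water replicate 3 lay just below regressing replicate 1. Adipoq lies at chr16:23146536-23158028.

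Lep encodes leptin, the hormone by which white fat reports its stores to the brain, and lies at chr6:29060220-29073877. It had no count in any of the 3 water libraries, 0, 2 and 1 counts in progressing tumours, and 20, 82 and 734 counts in regressing tumours. Those regressing counts are 1.23, 5.77 and 48.3 CPM, a mean of 18.4 ± 26.0 CPM (SD, n = 3). Against a floor of 3 counts per library in the shallowest library of a group, the regressing mean was at least 80.7-fold higher than water and at least 72.9-fold higher than progressing. Lep was the only one of the 10 whose regressing libraries all lay above all progressing libraries.

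Cfd encodes adipsin, complement factor D, and Retn encodes resistin, a secreted protein of mouse adipocytes. Cfd was at 1.93, 2.51 and 0.554 CPM after water, 1.42, 85.0 and 0.733 CPM in progressing tumours and 17.8, 28.1 and 146 CPM in regressing tumours. Retn was at 0.515, 0 and 0.0616 CPM after water, 0, 10.5 and 0.220 CPM in progressing tumours and 2.35, 2.32 and 19.9 CPM in regressing tumours. For both genes progressing replicate 2 lay above regressing replicates 1 and 2, by 3.03 times over replicate 2 for Cfd (95% counting interval 2.69 to 3.41) and by 4.54 times for Retn (3.07 to 6.87).

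Cidea, a droplet protein of brown adipocytes related to CIDEC, had 3, 2 and 10 counts after water, 0, 579 and 0 counts in progressing tumours, and 78, 725 and 6545 counts in regressing tumours. In CPM, the regressing libraries were at 4.81, 51.1 and 431 and progressing replicate 2 at 48.8. The antisense gene B430212C06Rik overlaps Cidea and had at most 35 counts in a thymus library; whether counting used strand is not given, so their reads cannot be told apart. Ucp1, at chr8:83290352-83298452, had 2, 0 and 5 counts after water, 1, 1885 and 1 counts in progressing tumours, and 224, 2027 and 18106 counts in regressing tumours. Its regressing levels were 13.8, 143 and 1191 CPM and that of progressing replicate 2 was 159 CPM. The regressing mean of 449 ± 646 CPM (SD, n = 3) had an SD above its mean, and the water mean was 0.146 ± 0.155 CPM (SD, n = 3), on too few counts for a fold.

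For all of the 10 genes but Lep, the group means ran in the order regressing, progressing, water. Lep was highest in regressing tumours and at the floor in both other groups. Progressing and water overlapped for all 10, and regressing and progressing overlapped for all but Lep; over all genes tested, 11.9% had every progressing library above every water library and 21.4% every regressing library above every progressing one. Regressing and water overlapped for Pparg and Fabp4. The other 8 did not overlap, where 19.3% of the 18119 genes tested had all regressing libraries above all water libraries; the genes were picked on these values, so nothing is read from the count. All 10 passed the filter on low counts, about 10 counts in at least 3 libraries, but 6 of them (Plin1, Cidec, Lep, Retn, Cidea and Ucp1) did so only with the help of the regressing libraries, where they are high, and had to differ to be tested. In edgeR's fit over the 9 libraries, 3 of the 10 (Plin1, Lep and Ucp1) were past the threshold against water, all 3 among those 6, with 7.70% of all genes past it in either direction. Between progressing and water none was (11.9% of all genes), and between regressing and progressing 1 was, Lep (12.6%). The median log2 difference over the 10 was 6.28 for regressing against water, 3.71 for progressing against water and 2.96 for regressing against progressing, where the medians over all genes were -0.11, -0.04 and -0.07. The first and the second of these contrasts share the water libraries. The 10 genes were picked with these levels in view, so nothing is read from their calls or medians.

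These group values rest on single libraries. Without progressing replicate 2, the progressing group lay below water for 8 of the 10 genes, with log2 differences of -5.30 for Cidea, -3.92 for Adipoq, -3.08 for Cidec, -1.08 for Ucp1, -0.91 for Plin1, -0.84 for Retn, -0.56 for Cfd and -0.05 for Pparg. Lep and Fabp4 then stayed higher than water, Lep on 1 count. Progressing replicates 1 and 3 had 3 counts or fewer of Cidea, Adipoq, Cidec, Ucp1, Plin1 and Retn, so the sizes of those differences are not supported. Ucp1, Plin1 and Retn also had no count in at least 1 water library. Without regressing replicate 3, the regressing group lay below the progressing group for Fabp4 (-0.93), Retn (-0.46) and Cfd (-0.19) and above it for the other 7. Leaving out any 1 of the 6 libraries left 0 or 1 of the 10 past the threshold between regressing and water. Between regressing and progressing, leaving out progressing replicate 2 raised the number to 6. The shares of all genes past the threshold in these fits are not given here, so nothing is read from the numbers.

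The regressing libraries differed widely from each other. Regressing replicate 3 exceeded replicate 1 by 89.4 times for Cidea (95% counting interval 71.6 to 113) and 86.2 times for Ucp1 (75.5 to 98.7). For Plin1, Cidec, Lep, Adipoq and Fabp4 the ratio was 55.1, 44.6, 39.1, 32.2 and 26.4. It was smallest for Pparg at 10.1 (8.15 to 12.7), Retn at 8.50 (6.05 to 12.2) and Cfd at 8.22 (7.27 to 9.33), whose intervals lie below those of Cidea and Ucp1. The median over the 10 genes was 35.7, beside 1.01 over the 18518 genes with more than 3 counts in both libraries, a value that the scaling of the libraries holds near 1. Replicates 1 and 3 differed in other genes too: 10 thymocyte genes summed to 9880 and 5265 CPM, 8 fibroblast genes to 151 and 444 CPM, and the mitochondrial share was 2.08% and 8.48%. Their part in these ratios was not tested.

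**Figure D2:**
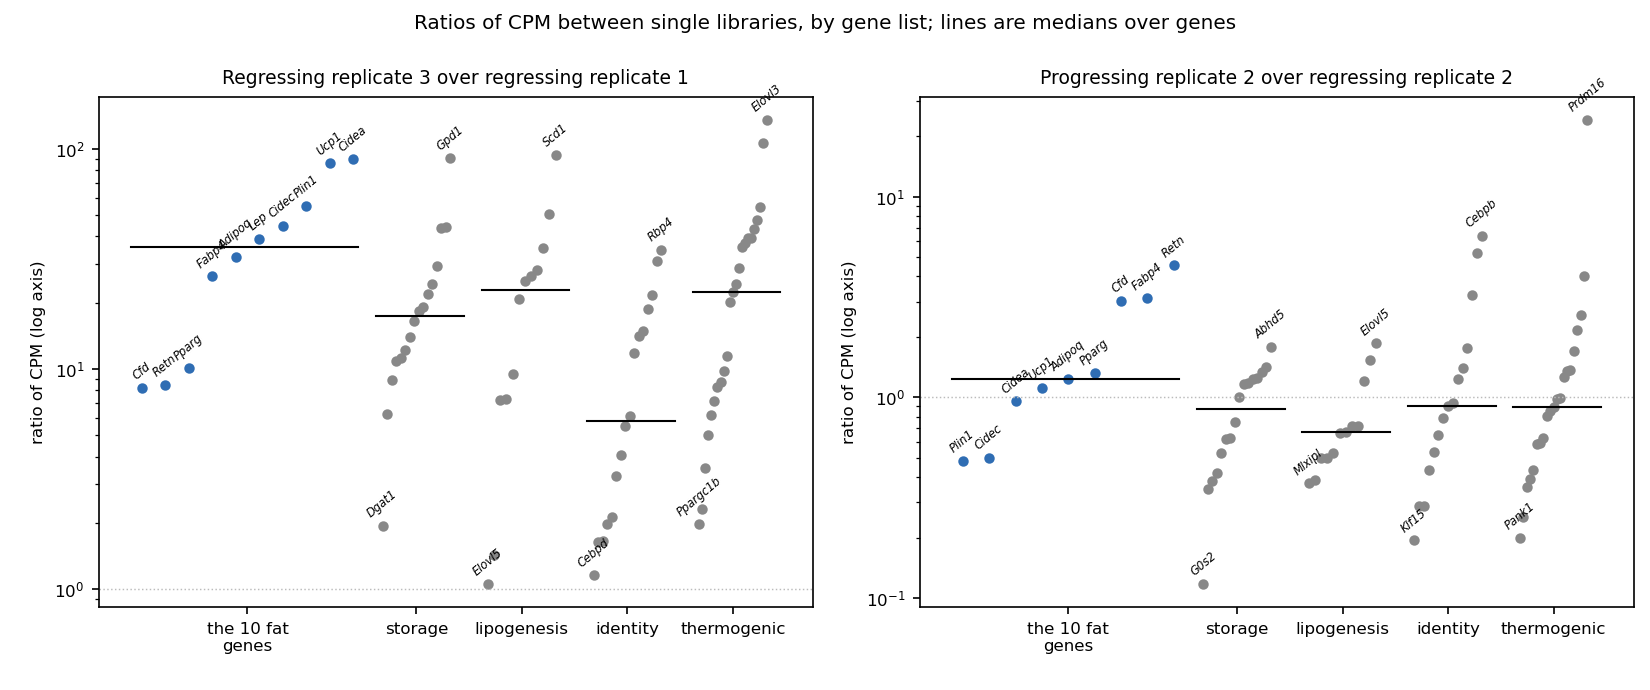
Ratio of CPM between single libraries on a log axis, for the 10 genes (blue) and for 4 other fat gene lists (grey), with lines at the medians over genes; Lep has too few counts for the right panel. In the left panel Cidea and Ucp1 stand at 89.4 and 86.2 and Cfd at 8.22. In the right panel Ucp1, Cidea and Adipoq lie near 1, Plin1 and Cidec near 0.5, and Prdm16 at 24.1.

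Ratios between genes of the same library set heat-producing against general fat genes whatever the depth of that library. Ucp1 to Adipoq, per kb, was 2.42 (95% counting interval 1.87 to 3.18), 5.90 (5.21 to 6.70) and 6.48 (6.21 to 6.77) in regressing replicates 1, 2 and 3, and 5.32 (4.71 to 6.03) in progressing replicate 2. In the water tumours with enough Adipoq to judge, it was 0.0433 (0.00506 to 0.167) in replicate 1 and 0.0670 (0.0210 to 0.165) in replicate 3. Regressing replicate 1, with 78 counts of Adipoq, and water replicate 3, with 63, thus had similar amounts of Adipoq RNA and 224 against 5 counts of Ucp1. In the grafts, PBS replicate 2 with 22 counts of Adipoq had no Ucp1 count (ratio up to 0.154), and ATO replicate 2 with 17 counts had none either (up to 0.205).

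Cidea to Cidec, the pair of related droplet proteins, gave 1.38 (1.01 to 1.88), 2.67 (2.37 to 3.01) and 2.77 (2.66 to 2.88) per kb in regressing replicates 1, 2 and 3. Progressing replicate 2 stood higher, at 5.13 (4.34 to 6.08). Water replicate 3 had a ratio of 1.85 on 10 and 9 counts (0.675 to 5.14), which did not part it from the regressing libraries. No graft had a count of Cidea, with 30 counts of Cidec in PBS replicate 2 (ratio up to 0.218).

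Lep to Adipoq separated progressing replicate 2 from the regressing libraries. The ratio per kb was 0.106 (0.0612 to 0.174), 0.116 (0.0900 to 0.149) and 0.128 (0.118 to 0.139) in the 3 regressing libraries, which overlapped although their Lep counts ran from 20 to 734. In progressing replicate 2 it was 0.00275 (0.000332 to 0.0100), on 2 counts of Lep beside 299 of Adipoq. Regressing replicate 2 had 82 counts of Lep beside 290 of Adipoq. The water tumours had no Lep beside 39 and 63 counts of Adipoq in replicates 1 and 3, with upper limits of 0.0408 and 0.0248. Graft PBS replicate 2 had 13 counts of Lep beside 22 of Adipoq, a ratio of 0.243 (0.113 to 0.505).

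Cfd to Adipoq varied the other way. It was 5.53 (4.29 to 7.20), 2.06 (1.77 to 2.41) and 1.41 (1.33 to 1.50) in regressing replicates 1, 2 and 3, with no overlap of the intervals, and 5.05 (4.43 to 5.76) in progressing replicate 2. In water replicate 3 it was 0.214 (0.0935 to 0.433). The graft PBS libraries were at 22.9 (10.7 to 58.3) and 11.8 (7.58 to 19.4), and graft ATO replicate 2 at 2.82 (1.52 to 5.41).

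**Figure D3:**
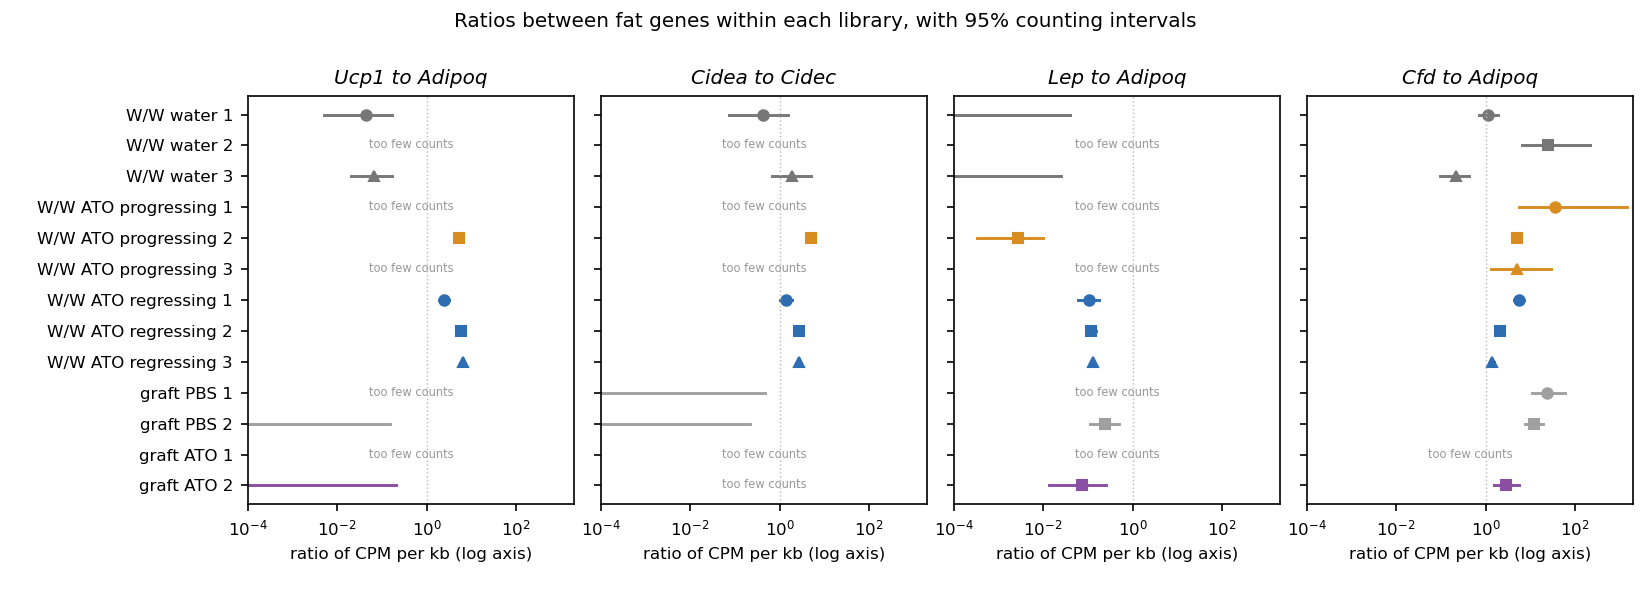
Ratios of CPM per kb between pairs of fat genes in each library on a log axis, with 95% counting intervals; a line without a point is a ratio of 0 with its upper limit, and libraries with fewer than 10 counts of both genes are marked as having too few. The 3 regressing libraries and progressing replicate 2 lie above 1 for Ucp1 to Adipoq and the water libraries below it, and progressing replicate 2 lies below the regressing libraries for Lep to Adipoq.

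Progressing replicate 2 and regressing replicate 2 held close amounts of several of the 10 genes: the first over the second was 1.11 for Ucp1 (1.05 to 1.19), 0.956 for Cidea (0.856 to 1.07) and 1.23 for Adipoq (1.05 to 1.46). The lipid droplet genes were lower in the progressing tumour, with 0.483 for Plin1 (0.396 to 0.587) and 0.498 for Cidec (0.418 to 0.592). Among other genes of fat, Prdm16, a transcriptional regulator of brown fat that other tissues also express, was 24.1 times higher in the progressing tumour (17.6 to 33.9), and Cebpb, an early adipogenic factor induced in many cells, 6.39 times. G0s2, an inhibitor of lipolysis, stood at 0.117 (0.0753 to 0.176), and Pank1 and Klf15 stood at 0.199 and 0.194. Prdm16 was also at 19.2 and 15.5 CPM in water replicates 1 and 2, where Ucp1 had 2 and 0 counts. These are ratios between 1 library and another.

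Other genes of fat were followed in lists written from general knowledge with earlier results of these data known. Of 16 genes of fat storage, 4 rose in regressing tumours against water (Plin4, Aqp7, Gpd1 and Pck1), none fell and 12 did not pass edgeR's quasi-likelihood test, with a median log2 difference of 3.01 over the list; of all genes tested, 3.13% rose. Gpd1, which makes the glycerol backbone of triglyceride, rose by a log2 difference of 7.89 (SE 2.07, Benjamini-Hochberg adjusted p = 0.0452), from 3.09 to 3.39 CPM after water to 23.0, 207 and 2084 CPM in regressing replicates 1, 2 and 3. Of the other abundant storage genes, Lpl, Cd36 and Pnpla2 did not pass, with regressing levels of 65.7 to 804, 39.0 to 643 and 59.6 to 671 CPM. Of 12 lipogenesis genes 2 rose (Mlxipl and Slc2a4) and none fell, with a median of 2.69. Scd1, the desaturase, was at 53.1 to 506 CPM after water and at 167, 1624 and 15670 CPM in regressing replicates, the highest level of any gene in these lists, and did not pass; Acly and Elovl5 did not pass either.

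Of all genes tested, 3.13% rose between regressing and water, and 11.9% passed in either direction between progressing and water. Nothing about a list as a whole is read from its number of calls. Of 16 genes of adipocyte identity and secretion, 1 rose between regressing and water, Car3, by 7.54 (SE 1.78, edgeR adjusted p = 0.0338), with a median of 1.63. Hp, Rxra and Cebpa did not pass between regressing and water, and Rxra fell between progressing and water with a log2 difference of -1.58 (SE 0.37, edgeR adjusted p = 0.0225), as did Nr1h3. Of 24 thermogenic genes tested out of 25, 3 rose (Cpt1b, Fabp3 and Ppara), all of which have roles in fatty acid use in muscle and other oxidative tissues as well as in brown fat, and the median was 3.39. Pdk4, Acot11 and Gk did not pass there. Between progressing and water 1 thermogenic gene rose, Dio2, whose enzyme activates thyroid hormone, by 3.91 (SE 0.92, edgeR adjusted p = 0.0228). Its levels were 10.0, 6.49 and 22.2 CPM in progressing replicates 1, 2 and 3, so it was present in the libraries that had 1 count of Ucp1. Of 10 preadipocyte genes 1 rose with regression, Pi16, and 1 fell in progressing tumours, Icam1, while Dpp4, Col15a1 and Pdgfrb did not pass in any thymus comparison. Of the genes that rose between regressing and water, Plin4, Aqp7 and Ppara passed the filter on low counts only with the regressing libraries. In all, 3 of the 16 storage, 2 of the 16 identity and 8 of the 24 thermogenic genes tested did so. The counts and medians of these lists thus include genes that had to differ. Agt and Bmp8b, also among them, were exceptions. Agt averaged 0.646 CPM in regressing tumours and 1.15 CPM after water, and Bmp8b had 2, 5 and 21 counts beside 26, 1 and 11. Each of the genes that rose lost its call in at least 5 of the 6 fits that left out 1 library.

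Between regressing and progressing, 6 genes of these lists rose, among 6.45% of all genes tested, and none fell: Lipe (storage), Fasn (lipogenesis), Klf15 (identity), and Cpt1b, Acot11 and Pank1 (thermogenic). Fasn, fatty acid synthase, was at 128, 493 and 4558 CPM in regressing replicates and at 75.9, 192 and 162 CPM in progressing ones. Water tumours held 301 to 336 CPM of Fasn, more than the lowest regressing library. These comparisons use the same libraries as the 10 genes and are not independent of them.

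Like the 10 genes, the lists differed most among the regressing libraries. Replicate 3 over replicate 1 had a median of 17.4 for storage, 23.0 for lipogenesis, 5.80 for identity and 22.3 for the 23 thermogenic genes with counts. The largest ratios were 135 for Elovl3, which elongates fatty acids in brown fat, 106 for Otop1, 93.8 for Scd1 and 90.5 for Gpd1. Elovl3 and Otop1 had only 9 counts each in regressing replicate 1, with counting intervals of 71.1 to 297 and 55.5 to 232. These intervals hold the ratios of Scd1 and Gpd1, so the order of these genes is not supported. Summed levels of the thermogenic list were 86.8 to 94.4 CPM after water, 60.9 to 316 CPM in progressing tumours and 90.7 to 1668 CPM in regressing tumours, so regressing replicate 1 lay within the water range by that sum despite its 224 counts of Ucp1. Zic1, a gene of classical interscapular brown fat, had 0, 0 and 2 counts in the regressing libraries and 4 in progressing replicate 2.

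The genes whose log2 CPM followed Ucp1 most closely over the 9 thymus libraries, leaving out the 10 themselves, were Gpd1 (Pearson r 0.991), Cox8b (0.989), Car3 (0.984), Pck1 (0.982) and Plin4 (0.974). For Adipoq they were Cox8b (0.978), Slc36a2 (0.971), Proca1 (0.968), Kcnk3 (0.965) and Adig (0.962). Among the 10, r with Ucp1 was 0.995 for Cidea, 0.979 for Cidec, 0.972 for Cfd, 0.826 for Lep and 0.803 for Pparg. These are descriptions over 9 libraries in which 4 hold nearly all the signal, and genes of a library share its depth and its tissue.

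Other cell types moved with some of these levels and not with others. The summed level of 8 thymic epithelial genes was 1500 to 1687 CPM in regressing tumours, 124 to 881 CPM after water and 48.3 to 100 CPM in progressing tumours. Pth, the parathyroid hormone gene, had 1652, 845 and 608 counts in regressing replicates 1, 2 and 3, 1, 0 and 1 counts after water and none in progressing tumours; the parathyroid and thyroid list summed to 62.6 to 176 CPM, 3.47 to 20.9 CPM and 3.01 to 9.70 CPM. Thymocyte genes summed to 9880, 10224 and 5265 CPM in regressing replicates 1, 2 and 3. They summed to 1075 to 1636 CPM after water and 3590 to 4043 CPM in progressing tumours. Of the 10, 6 rose between regressing and water, where 3.13% of all genes tested rose. Fibroblast genes summed to 151, 128 and 444 CPM in regressing replicates, 338 to 972 CPM after water and 812 to 1624 CPM in progressing tumours. Of the 8, 3 fell between regressing and water, where 7.70% of all genes tested passed in either direction. Foxn1, the epithelial master regulator, had 230, 183 and 147 counts in regressing replicates and 4 in progressing replicate 2. Progressing replicate 2 thus held fat gene RNA with little of the epithelial RNA and no count of the parathyroid hormone RNA seen in regressing tissue, and among regressing libraries Pth was lowest where Ucp1 was highest. The mitochondrial share was highest in the libraries with the first and the second highest Ucp1 level, and the skeletal muscle markers summed to 45.6 to 51.0 CPM in regressing tumours, inside the 29.9 to 72.0 CPM of the water tumours. The part of other tissue or of mitochondrial content in the fat gene levels was not tested.

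**Figure D4:**
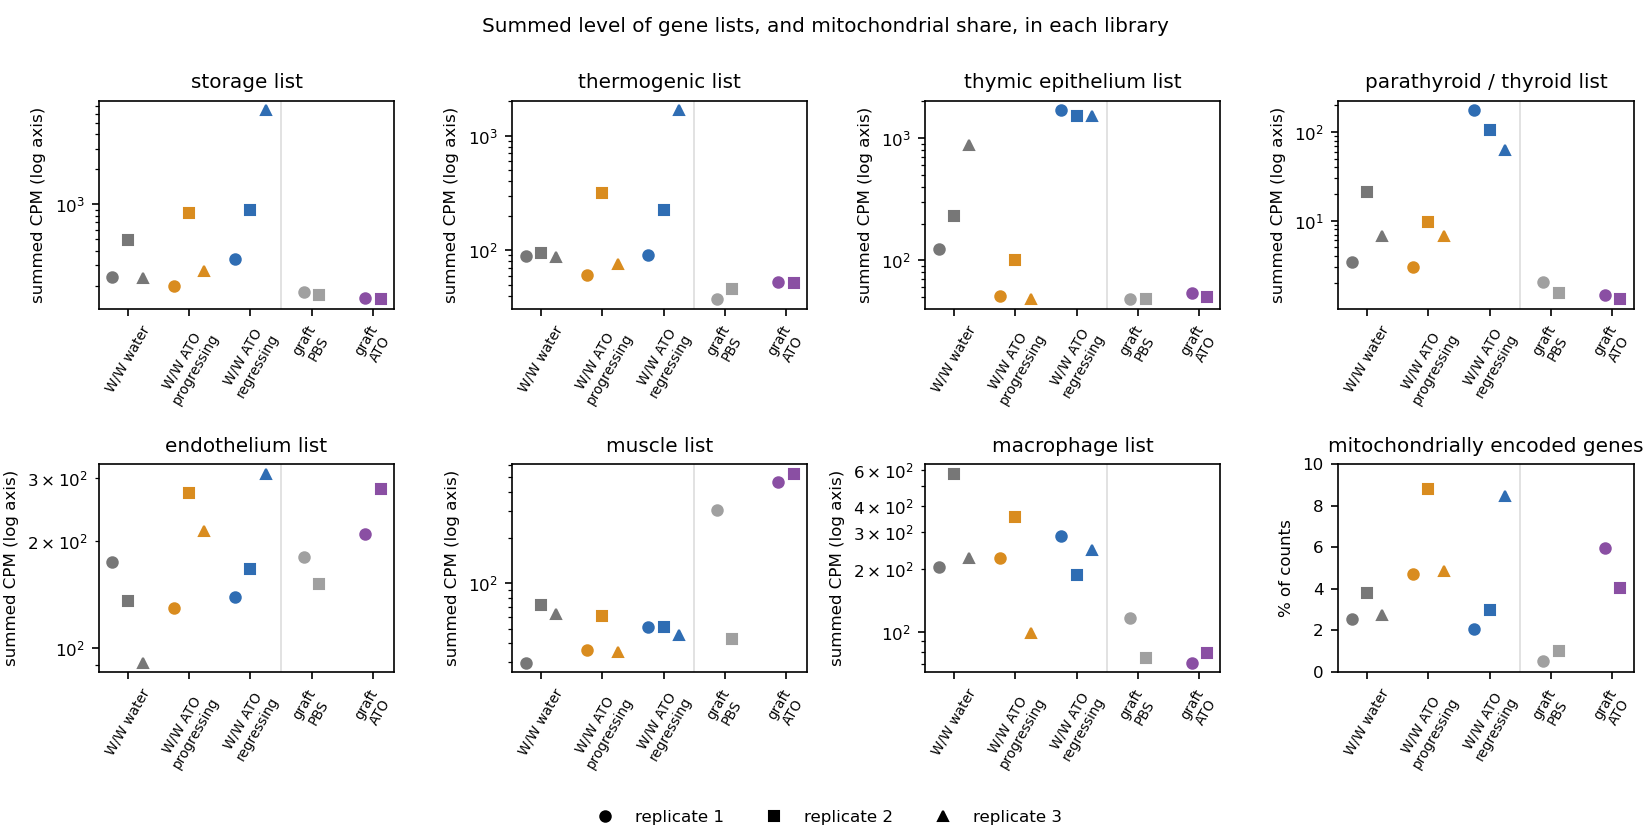
Summed CPM of gene lists on log axes, and the percentage of counts from mitochondrially encoded genes on a linear axis, in each library. Thymic epithelium and the parathyroid and thyroid list are high in the 3 regressing libraries and low in progressing replicate 2, whereas the thermogenic list and the mitochondrial share stand high in regressing replicate 3 and progressing replicate 2.

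In the grafts, white fat genes were present at low levels and heat-producing genes were not detected above the floor. Cidea had no count in any of the 4 libraries and Ucp1 had 1 count in ATO replicate 1 and none elsewhere. Fabp4 was the most abundant, at 66.4 and 93.0 CPM after PBS and 57.3 and 40.3 CPM after ATO. In the PBS libraries Adipoq had 7 and 22 counts, Lep 0 and 13 and Plin1 1 and 12, and in the ATO libraries Adipoq had 0 and 17, Lep 0 and 3 and Plin1 1 and 7.

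Cfd was lower in the ATO grafts. The PBS libraries held 107 and 174 counts of it and the ATO libraries 3 and 32, or 7.78 and 11.7 CPM against 0.221 and 2.10 CPM, with no overlap. Its fitted log2 difference was -3.03 (SE 0.70), and it was the 1 gene past edgeR's threshold among the 6 that could be fitted, where 6.57% of 15468 genes were called lower; the genes were picked with these values in view, so nothing is read from the count. Cidec was at 1.09 and 2.01 CPM after PBS and 0.0736 and 0.460 CPM after ATO, a log2 difference of -2.47 (SE 0.80). The differences were -0.71 (SE 0.25) for Fabp4, -0.50 (SE 0.53) for Pparg, -0.79 (SE 1.02) for Adipoq and 0.33 (SE 0.61) for Retn, the last 3 within about 1 SE of 0. Pparg, Fabp4, Cidec and Cfd had both ATO libraries below both PBS libraries, as did 30.0% of all tested genes. The 4 genes not fitted, Plin1, Lep, Cidea and Ucp1, had too few counts. With 1 graft left out at a time the Cfd difference ranged from -5.42 to -2.22, whereas Adipoq turned to 0.14 without PBS replicate 2 and to 0.15 without ATO replicate 1, and Retn to -0.15 without PBS replicate 1 and to -0.08 without ATO replicate 1.

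None of the tested storage (13), lipogenesis (10) or identity (10) genes passed edgeR's test in the grafts, with median log2 differences of -0.22, 0.30 and -0.07, and with 2 libraries a group a missed threshold does not show that they did not change. Both ATO libraries lay below both PBS libraries for 5 storage, 0 lipogenesis and 4 identity genes, and above them for 3, 5 and 1. Those below included Lpl at -0.75 (SE 0.27, edgeR adjusted p = 0.0763) and Nr1h3 at -1.16 (SE 0.39, edgeR adjusted p = 0.0661). Over all tested genes 30.0% lay below in this way. The shares of all genes that lay above or were called higher are not given here. Nothing is therefore read from these counts or from the counts of risen genes that follow. Of 10 thermogenic genes tested, Pdk4 rose by 1.93 (SE 0.59, edgeR adjusted p = 0.0490); it is also a skeletal muscle gene, and 16 muscle markers summed to 305 and 43.0 CPM after PBS and 469 and 528 CPM after ATO, with 5 of the 16 risen and Acta1 at 127 and 4.15 CPM against 129 and 159 CPM. Their part in the Pdk4 level was not tested. Of 9 preadipocyte genes tested, Pdgfra and Col15a1 rose, by 2.18 (SE 0.45, edgeR adjusted p = 0.0144) and 0.89 (SE 0.24, edgeR adjusted p = 0.0351). The mitochondrial share was 0.521% and 1.02% after PBS and 5.98% and 4.03% after ATO, fibroblast genes summed to 660 and 378 CPM after PBS and 726 and 1769 CPM after ATO with 3 of 8 risen, and thymocyte genes to 6956 and 5877 CPM after PBS and 4876 and 3907 CPM after ATO with 2 of 10 fallen and 1 risen. Over all tested genes 6.57% were called lower in the grafts. The part of the mitochondrial, fibroblast and thymocyte levels in the Cfd level was not tested.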

How the data were processed

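RNA sequencing libraries were made from total RNA with a SMARTer kit, per the labels' protocols; that text also describes cells cultured with dexamethasone, isobutylmethylxanthine and insulin, agents used to make adipocytes, although no thymus or graft was cultured per the labels, so how far it applies to these libraries is not known. FastQC 0.10.1, cutadapt 1.9.1, HISAT2 2.0.1 and the builds GRCm38 and mm10 are named in the submitters' processing notes; the counter, its use of strand and the annotation are not given in the sources used here. Raw, unnormalized counts for each gene were deposited by the authors as 1 table for each system. The deposited FPKM values, judged from the values, equal the count over the exonic size and over a single total per library. Ratios between genes of a library were also taken from them, but are the same by construction apart from rounding. The single total exceeded the summed counts by 0.106% to 2.33% in the thymus table, so some counted features were not analysed here. The graft table uses another, unnamed mouse build, and no coordinates are given from it. The U937 table was not used here.

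Counts were fitted with edgeR 4.0.16 (R 4.3.3; filterByExpr, TMM, quasi-likelihood test) and adjusted by the Benjamini-Hochberg method over all 18119 or 15468 tested genes, at a threshold of 0.05; the 9 thymus libraries were fitted together and the 4 grafts alone. CPM used TMM-adjusted library sizes, and intervals are exact at 95%. A group at 3 counts or fewer in each library was held at that floor. Alternatives used other size factors, no filter, DESeq2 1.42.0, limma-voom (limma 3.58.1), a replicate block, the compared groups alone and each library left out. Same-numbered thymus libraries did not deviate together more than others (r -0.12 to 0.13 over 9 pairs, and -0.16 to 0.17 over 18 differently numbered pairs). With so few libraries this cannot exclude a batch shared by number, and the main fit used no pairing. The fit was tested on simulated data.

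The 10 genes and the gene lists were chosen with earlier results of these data known, so no adjusted p is given for the 10. Besides the 10, the genes named were the 4 of each fat list with the highest mean CPM in the thymus table, those past the threshold, Lpl and Nr1h3 in the grafts, and the 5 most like Ucp1 and Adipoq by Pearson r of log2(CPM + 1) among genes averaging 1 CPM or more; the other genes compared between progressing replicate 2 and regressing replicate 2 or 3 and 1 were singled out after their values were seen.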

Additional observations from a re-analysis of the deposited data

Results flagged for a closer look

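Regressing and progressing tumours, both from ATO-treated mice and parted by outcome, differed in 6 genes of the fat lists by edgeR's quasi-likelihood test of regressing minus progressing. These were 1 of 16 storage, 1 of 12 lipogenesis, 1 of 16 identity and 3 of 24 thermogenic genes tested, and none of 10 preadipocyte genes. Of all genes tested, 6.45% were called higher in this comparison, so nothing is read from the number of calls. The log2 differences were 3.74 for Lipe (SE 0.94, adjusted p = 0.0325), 3.59 for Fasn (adjusted p = 0.0466), 3.56 for Klf15 (SE 0.93, adjusted p = 0.0354), 3.84 for Cpt1b (SE 1.13, adjusted p = 0.0492), 4.51 for Acot11 (SE 1.28, adjusted p = 0.0446) and 3.69 for Pank1 (SE 0.99, adjusted p = 0.0377). With 1 library left out at a time, the call was lost in all 6 fits for Cpt1b, Acot11 and Pank1, in 5 for Fasn and Klf15 and in 4 for Lipe. Klf15, a transcription factor of fat and muscle, and Pank1, which starts coenzyme A synthesis, were lower in progressing replicate 2 than in regressing replicate 2, at ratios of 0.194 and 0.199.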

How the results depend on the processing

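The ratios between Ucp1 and Adipoq and between Cidea and Cidec moved within their counting intervals with 0.1 CPM added. From the deposited FPKM they are the same apart from rounding, because the library total cancels, so the FPKM is no check on them. Counts of calls moved with the fit. Of the 10 genes, the 3 past the threshold between regressing and water became 10 with no filter on low counts, 8 by DESeq2, 1 by limma-voom and 6 with only the compared groups fitted; the 0 between progressing and water became 7 with no filter and 1 by DESeq2; the 1 between regressing and progressing became 7 with no filter and 0 by limma-voom; and the 1 in the grafts became 3 with no filter. Of the storage, lipogenesis and identity lists together, the 7 calls between regressing and water became 28 with no filter, 24 by DESeq2 and 1 by limma-voom. The 2 between progressing and water became 8, 4 and 1 under these settings and 0 with only the compared groups. The 3 between regressing and progressing became 32, 19 and 1, and 8 with raw library sizes. The 0 in the grafts became 1 with no filter, 2 by DESeq2 and 2 with raw library sizes. Of the thermogenic list, the 3 calls between regressing and water became 15 with no filter, 15 by DESeq2 and 0 by limma-voom. The 1 between progressing and water became 6 with no filter and 0 with only the compared groups. The 3 between regressing and progressing became 14 with no filter, 5 by DESeq2, 0 by limma-voom and 1 with only the compared groups. The 1 in the grafts, Pdk4, became 0 with DESeq2's size factors, by DESeq2 and by limma-voom. The share of all genes called is given here for the main fit only. Counts of calls under other fits, here and below, thus do not show whether these genes or the call rate over all genes moved. The cause of these changes was not tested.

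With 1 library left out at a time, the calls among the 10 genes, the 3 lists together and the thermogenic list ranged from 0 to 1, 0 to 1 and 0 to 1 between regressing and water. They ranged from 0 to 0, 0 to 2 and 0 to 1 between progressing and water, from 0 to 6, 0 to 8 and 0 to 2 between regressing and progressing, and from 1 to 3, 0 to 5 and 0 to 1 in the grafts. Fits without 1 library in the grafts leave 1 sample in a group, which is assumed to vary like the other group. The fitted graft difference ranged from -6.83 to 0.15 for Adipoq and from -0.15 to 1.01 for Retn.

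With the replicate block, the calls between regressing and water became 1 among the 10 genes and 3 in the 3 lists, those between progressing and water 1 in the 3 lists, those between regressing and progressing 1 in the 3 lists and 0 in the thermogenic list, and those in the grafts 0 in the thermogenic list; the other counts moved by less than 1.5 times. In the grafts r was -0.13 for same-numbered and 0.13 for differently numbered libraries. With 2 libraries a group these values are equal in size by construction, so they do not show whether the numbers pair libraries. With the pairing crossed, chosen after seeing the data, calls became 3 among the 10 genes and 3 in the 3 lists.

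With 3 libraries a group and a range of up to 89.4 times inside the regressing group, group means of these genes carry little precision. Counts under about 10, as for Ucp1 and Lep after water and in the grafts apart from Lep in PBS replicate 2, do not support the size of a ratio. Ratios given above on such counts are to be read only by their intervals or limits.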

Other observations

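Counts of 3 genes of the thermogenic list, singled out after their values were seen, are given beside those of Ucp1. The 4 genes of that list given after them had a different pattern, and they were not the only ones. Ppargc1b, for example, had 99, 117 and 64 counts after water beside 127, 113 and 235 in regressing tumours. Adrb3, the adrenergic receptor through which cold activates fat, had 0, 0 and 9 counts after water, 1, 43 and 1 in progressing replicates 1, 2 and 3, and 37, 118 and 1298 in regressing replicates 1, 2 and 3. Elovl3 had 2, 0 and 0 counts after water, 0, 103 and 4 in progressing tumours and 9, 126 and 1143 in regressing tumours, and Cox8b, a cytochrome oxidase subunit of brown fat and muscle, had 5, 1 and 22, then 3, 337 and 0, then 69, 319 and 2556. In the PBS grafts Adrb3 had 3 and 0 counts and Elovl3 19 and 13, and in the ATO grafts Adrb3 had none and Elovl3 18 and 8, in libraries with at most 1 count of Ucp1. In contrast, Prdm16 had 299, 204 and 17 counts after water beside 39, 41 and 184 in regressing tumours, Gk had 409, 539 and 608 beside 403, 410 and 875, Lhx8 had 16, 2 and 11 beside 5, 1 and 29, and Bmp8b had 26, 1 and 11 beside 2, 5 and 21.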
